A study of Mus musculus with 12 samples.

Results

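The genes that display peptides on MHC class I and class II molecules were followed in tumours of MC38, a carcinoma line of the mouse colon. The list held 33 genes: 18 that make or fill class I molecules, 12 that make or fill class II molecules, and the 3 subunits of the RFX complex, which serves both. It was drawn up by gene function, with earlier results of these data known. Each gene was read through its brightest probe set among those annotated to it alone. In this way 30 of the 33 genes had values, out of 18193 genes with such a probe set. H2-T23, Psme2 and H2-DMb1 were read only by probe sets shared with another gene and are given no values. Of the 30, H2-Oa and H2-Ob, the chains of the DM inhibitor, had means of 5.31 and 3.84, under the floor of 5.55 (the median log2 value of all probe sets), and 28 were tested: 16 class I genes, 9 class II genes and 3 RFX genes.

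All tumours carried a doxycycline-inducible hairpin against Tdo2, the enzyme that opens tryptophan for the kynurenine pathway, and had been started in the cecum of C57BL/6 mice. The 4 groups of 3 tumours were APC-WT no Dox, APC-WT Dox, APC-KO no Dox and APC-KO Dox, where APC-KO cells lack APC, the scaffold that keeps beta-catenin low, and Dox is doxycycline in the drinking water. The sources used here do not give the age of the mice, the number of clones behind the APC-KO line, or a separate animal for each tumour, and the spread behind each p-value is that between these arrays and may be technical. No tumour with Dox but no hairpin was analysed here, and effects of Dox and of the hairpin cannot be told apart.

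MHC class I molecules are built in nearly every nucleated cell from a heavy chain (H2-K1, H2-D1) and beta-2 microglobulin. The immunoproteasome cuts the peptides, the TAP transporter carries them into the endoplasmic reticulum, and ERAP1, tapasin and their partners trim and load them for CD8 T cells. Class II molecules are built mainly by dendritic cells, macrophages and B cells, are guarded by the invariant chain CD74, are loaded in endosomes with the help of H2-DM, and are read by CD4 T cells. NLRC5 and CIITA are related coactivators: NLRC5 drives class I genes, CIITA drives class II genes, both through the RFX complex on a shared promoter module, and interferon gamma raises both.

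RNA of the whole tumour was measured, so RNA of MC38 cells and of host cells was read together, and fewer cells of a type cannot be told apart from less RNA per cell. Array medians lay between 5.528 and 5.575 and correlations between arrays of a group between 0.995 and 0.998. An Apc probe set separated the genotypes, with log2 values of 7.57 to 7.84 in APC-WT and 6.74 to 7.02 in APC-KO tumours. Another separated them at 6.25 to 6.63 and 5.78 to 6.13. The brightest Apc probe set overlapped, at 8.39 to 8.57 and 8.19 to 8.41, as did one under the floor, at 3.04 to 3.34 and 2.99 to 3.21. The 3 Tdo2 probe sets had means of 3.85, 3.12 and 2.59, all under the floor, so the knockdown could not be checked on these arrays. Of 8 markers of intestinal epithelium, 6 were under the floor (Vil1, Cdh17, Cdx2, Krt20, Muc2 and Fabp1), whereas the 5 markers of all leukocytes and the 10 of macrophages lay above it in the mean.

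The first question was how the presentation genes differed between tumours with and without APC. With both Dox states averaged, 12 of 16 class I genes were lower in APC-KO tumours, 1 was higher and 3 did not pass. None of the 9 class II genes passed, and 0 had an unadjusted p under 0.05, where 45.6% of all genes did. Over all 11070 genes tested 15.6% were lower and 20.9% higher (limma, Benjamini-Hochberg adjusted p under 0.05). The median log2 difference was -0.31 over the class I genes, -0.03 over the class II genes and 0.01 over all genes. In 6 class I genes (Tapbpl, Psmb8, Psmb9, Psmb10, Psme1 and Nlrc5) each of the 6 APC-KO tumours lay below each of the 6 APC-WT tumours, a separation seen downward in 6.67% of all genes. T cell markers moved with the genotype as well, with 6 of 8 lower, and their part in the class I values was not tested. Differences below are APC-KO minus APC-WT on the log2 scale, averaged over the Dox states with the standard error (SE) of the fit over 6 against 6 tumours, unless another comparison is named.

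**Figure D1:**
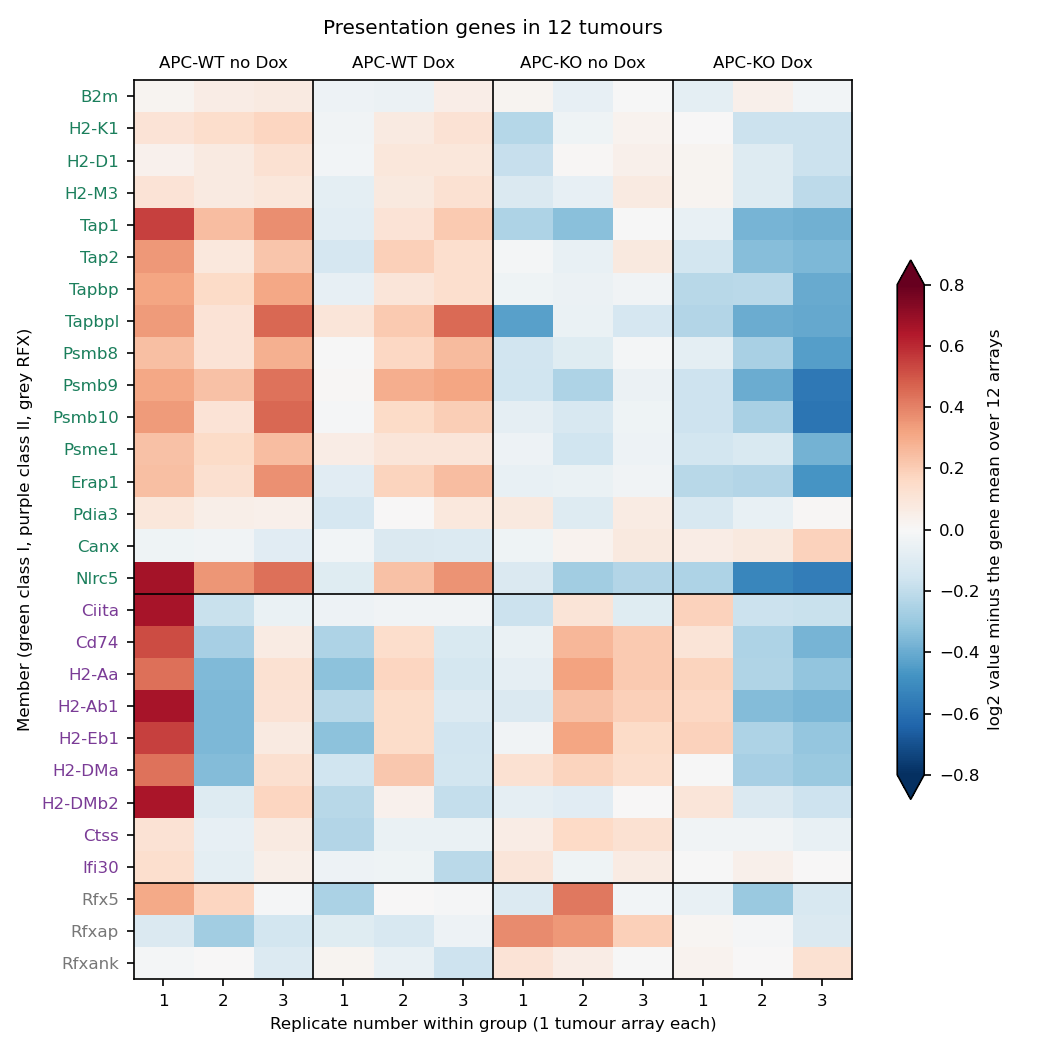
Log2 values of the 28 tested genes in each of the 12 tumours, shown as the distance from the mean of that gene over the 12 arrays; rows are genes by arm, columns are tumours by group. Most class I rows turn from red to blue between APC-WT and APC-KO tumours, whereas the class II rows vary together between the tumours of a group.

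Nlrc5, the class I coactivator, had the largest difference of all 28 genes. Its log2 values were 9.64, 9.33 and 9.42 in APC-WT tumours without Dox and 8.88, 9.21 and 9.34 with Dox. In APC-KO tumours they were 8.86, 8.70 and 8.74 without Dox and 8.73, 8.46 and 8.42 with Dox. The highest APC-KO tumour thus lay just under the lowest APC-WT tumour. The difference was -0.65 ± 0.08, or 1.57-fold lower (adjusted p = 4.71e-05). It stood at -0.70 ± 0.12 without Dox and -0.61 ± 0.12 with Dox.

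Ciita, the class II coactivator, did not pass. It was read at 6.43, 5.60 and 5.73 in APC-WT tumours without Dox and at 5.74, 5.75 and 5.75 with Dox. The APC-KO tumours gave 5.60, 5.88 and 5.68 without Dox and 5.96, 5.60 and 5.60 with Dox. Apart from the first APC-WT tumour all values lay within 5.60 to 5.96, close to the floor of 5.55, where a change can be hidden. The difference was -0.11 ± 0.13 (adjusted p = 0.523), with a 95% interval of -0.38 to 0.16.

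The immunoproteasome genes Psmb8, Psmb9 and Psmb10 encode the catalytic subunits that replace those of the standard proteasome under interferon. Psmb9 had log2 values of 10.75, 10.67 and 10.87 in APC-WT tumours without Dox and 10.44, 10.73 and 10.75 with Dox, against 10.27, 10.19 and 10.39 in APC-KO tumours without Dox and 10.27, 10.04 and 9.86 with Dox. All 6 APC-KO tumours were below all 6 APC-WT tumours, and the difference was -0.53 ± 0.07, or 1.45-fold lower (adjusted p = 8.59e-05). Psmb10 was read at 11.60, 11.37 and 11.73, then 11.26, 11.42 and 11.46 in the APC-WT groups without and with Dox, and at 11.19, 11.14 and 11.23, then 11.10, 11.01 and 10.68 in the APC-KO groups. The difference was -0.42 ± 0.07 (adjusted p = 0.000605). Psmb8 was at 11.70, 11.57 and 11.75, then 11.46, 11.63 and 11.71 in APC-WT tumours, and at 11.31, 11.36 and 11.44, then 11.38, 11.20 and 11.02 in APC-KO tumours, a difference of -0.35 ± 0.06 (adjusted p = 0.000587). Psme1, the alpha subunit of the PA28 cap that opens the proteasome, lay at 11.77 to 11.95 in APC-WT and 11.33 to 11.67 in APC-KO tumours and was lower, at -0.30 ± 0.04 (adjusted p = 0.000173).

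The standard subunits that the immunoproteasome subunits replace were not lower. Psmb6, the counterpart of Psmb9, was higher at 0.09 ± 0.03 (adjusted p = 0.0253), and Psmb7, the counterpart of Psmb10, was higher at 0.18 ± 0.04 (adjusted p = 0.00237). Psmb5, the counterpart of Psmb8, was at 0.06 ± 0.03 (adjusted p = 0.14). Taken pair by pair within each tumour, the distance of Psmb9 from Psmb6 differed by -0.62 in APC-KO tumours and that of Psmb10 from Psmb7 by -0.60, and neither pair overlapped between genotypes. For Psmb8 and Psmb5 the difference was -0.41, and the genotypes overlapped. Those distances are from gene means over the 12 arrays and have no test of their own.

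**Figure D2:**
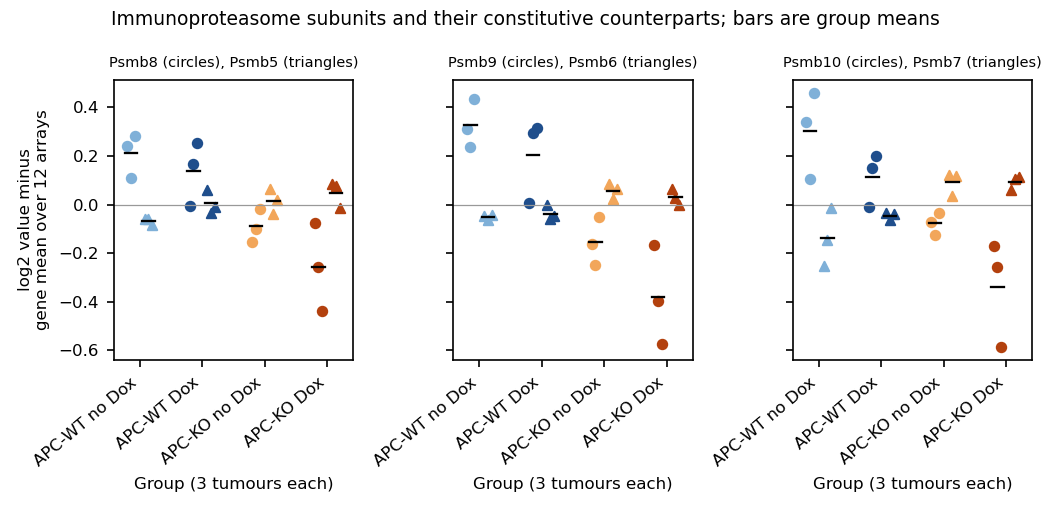
Log2 value minus the gene mean over 12 arrays for each immunoproteasome subunit (circles) and its standard counterpart (triangles) in the 4 groups of 3 tumours; bars are group means. The circles sit lower in the APC-KO groups and the triangles do not, with differences of -0.53 for Psmb9 and 0.09 for Psmb6.

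Peptide transport and loading genes were lower as well, with a pair of exceptions. Tap1, a subunit of the peptide transporter, had log2 values of 10.13, 9.83 and 9.96 without Dox and 9.50, 9.69 and 9.79 with Dox in APC-WT tumours. In APC-KO tumours it was at 9.34, 9.25 and 9.58 without Dox and 9.52, 9.21 and 9.20 with Dox. The genotypes overlapped, since the lowest APC-WT value of 9.50 lay under APC-KO values of 9.58 and 9.52, and the difference was -0.47 ± 0.08, or 1.38-fold lower (adjusted p = 0.000482). When its 4 probe sets were averaged in place of the brightest, Tap1 fell under the floor, at a mean of 5.13, and was not tested. Tap2, the partner subunit, ranged from 9.09 to 9.57 in APC-WT and 8.87 to 9.30 in APC-KO tumours and was lower by a difference of -0.28 ± 0.07 (adjusted p = 0.00442).

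Tapbp encodes tapasin, which bridges TAP and the class I molecule. Its values were 12.52, 12.36 and 12.52, then 12.14, 12.30 and 12.34 in APC-WT tumours without and with Dox, against 12.17, 12.16 and 12.18, then 11.98, 11.99 and 11.81 in APC-KO tumours. The lowest APC-WT tumour with Dox lay under the APC-KO tumours without Dox, and the difference was -0.32 ± 0.04 (adjusted p = 0.000118). Tapbpl, a tapasin relative that edits peptides outside the TAP complex, was at 9.08, 8.84 and 9.19, then 8.83, 8.94 and 9.19 in APC-WT tumours, and at 8.30, 8.68 and 8.60, then 8.50, 8.34 and 8.33 in APC-KO tumours, with no overlap. It was 1.47-fold lower (-0.55 ± 0.08, adjusted p = 0.000174). Erap1, the peptidase that trims peptides in the endoplasmic reticulum, ranged from 8.98 to 9.44 in APC-WT and 8.60 to 9.05 in APC-KO tumours, a difference of -0.36 ± 0.07 (adjusted p = 0.000937).

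By their brightest probe sets, the general chaperones of the loading complex did not follow. Pdia3, a disulfide isomerase that partners tapasin, stood at 12.19 to 12.41 in APC-WT and 12.20 to 12.40 in APC-KO tumours, with -0.04 ± 0.04 (adjusted p = 0.444, 95% interval -0.14 to 0.05). With the mean of its 2 probe sets in place of the brightest, however, Pdia3 was called lower. Canx, which encodes calnexin, a chaperone of new glycoproteins, was higher by 0.13 ± 0.03 (adjusted p = 0.00599), at 12.06 to 12.28 in APC-KO against 11.98 to 12.07 in APC-WT tumours. Both other Canx probe sets above the floor were higher too, at 0.44 ± 0.06 and 0.18 ± 0.06.

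Smaller differences were read for the class I chains themselves. H2-K1 was at 13.42, 13.45 and 13.48, then 13.28, 13.38 and 13.42 in APC-WT tumours without and with Dox, and at 13.08, 13.27 and 13.33, then 13.31, 13.13 and 13.13 in APC-KO tumours. The genotypes overlapped slightly, and the difference was -0.19 ± 0.05, or 1.14-fold lower (adjusted p = 0.00468). H2-D1 ranged from 13.33 to 13.48 in APC-WT and 13.17 to 13.40 in APC-KO tumours, at -0.13 ± 0.04 (adjusted p = 0.0312). That call ended when any 1 of 6 arrays was left out (replicates 2 and 3 of APC-WT Dox and of APC-KO Dox, replicate 3 of APC-WT no Dox and replicate 1 of APC-KO no Dox), with an adjusted p of up to 0.0804. H2-M3, a chain that presents formylated peptides, was at -0.13 ± 0.05 and did not pass (adjusted p = 0.0596), and B2m was at 13.47 to 13.59 and 13.44 to 13.56 in the genotypes (-0.04 ± 0.03, adjusted p = 0.342). H2-M3 was read at 9.21 to 9.54, whereas H2-K1, H2-D1 and B2m were read near the top of the scale, where the highest value on any array was 14.16. The brightest probe sets of H2-K1 and H2-D1 carry a suffix that marks possible reading of related sequences, such as other class I chains. Those of the class II genes H2-Aa and H2-DMb2 carry the same suffix. Of 26 further probe sets above the floor for 14 of the genes, 10 were lower and 2 higher, against 15.5% lower and 15.6% higher among 8481 such probe sets of all genes. Of the 26, 4 had the sign opposite to that of the brightest probe set. Only 2 of the 26 were lower and 2 higher without Dox, against 9.73% lower and 10.6% higher among such probe sets of all genes. With Dox 4 were lower and 1 higher, against 8.74% and 7.66%. All 3 of H2-K1 were lower (-0.15, -0.26 and -0.24), and those of H2-D1 ran from -0.29 to -0.12.

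The promoters of 26 of the 33 genes were found in RefSeq (GRCm38.p6), each as a window of 300 bases from 250 before to 50 after the start. The 4 class I chain genes with a value share a TGACG, a spacer of 20 bases and an ATTGG, letters of the module on which RFX and its partners assemble. The spacing was chosen after reading these promoters. It occurred on either strand in 26 of 27025 promoters (0.0962%), 3 of them of genes whose symbol starts with H2-. Of 15 class I promoters 4 held it, and that of H2-T23, the chain gene without a value, did not. Stretches of 106 bases are shown because they hold that module, in capitals, together with a kappa B match (GGGGA, any 1 base, TCCC) in H2-K1 and H2-D1 and, in B2m, an interferon-type match (GAAA, any 2 bases, GAAA).
H2-K1 (chr17:34000358-34000463, minus strand): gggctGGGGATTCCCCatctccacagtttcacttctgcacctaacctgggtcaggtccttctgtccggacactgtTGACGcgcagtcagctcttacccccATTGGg
H2-D1 (chr17:35262918-35263023, plus strand): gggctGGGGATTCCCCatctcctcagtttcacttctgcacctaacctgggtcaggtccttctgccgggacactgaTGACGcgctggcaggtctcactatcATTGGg
B2m (chr2:122147534-122147639, plus strand): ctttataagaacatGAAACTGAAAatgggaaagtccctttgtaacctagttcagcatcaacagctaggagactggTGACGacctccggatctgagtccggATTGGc
H2-M3 (chr17:37270113-37270218, plus strand): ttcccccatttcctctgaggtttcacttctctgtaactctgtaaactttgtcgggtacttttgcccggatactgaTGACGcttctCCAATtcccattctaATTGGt
Over these 106 bases H2-K1 and H2-D1 were 89.6% identical, while without gaps they were 41.5% and 40.6% identical to B2m. The kappa B letters occurred in 0.314% of all promoters. The GAAA pair occurred in 3.49% and in 5 of these 26 (B2m, Ctss, Erap1, H2-T23 and Psme1). TGACG alone occurred in 21.0% and in 11 of 26. CCAAT, which is ATTGG read on the other strand, occurred in 37.9% and in 18 of 26. The additional capitals in H2-M3 mark a CCAAT on the strand shown. The differences of the 4 genes that share the module ran from -0.19 in H2-K1 to -0.04 in B2m, and a match in these windows is a description of letters, not a site.

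Psmb9 and Tap1 start 225 bases apart on opposite strands and share the stretch between, shown because both genes were lower and their promoter is the same DNA (capitals mark CCAAT and TGACG).
Psmb9 and Tap1 (chr17:34187331-34187555, plus strand): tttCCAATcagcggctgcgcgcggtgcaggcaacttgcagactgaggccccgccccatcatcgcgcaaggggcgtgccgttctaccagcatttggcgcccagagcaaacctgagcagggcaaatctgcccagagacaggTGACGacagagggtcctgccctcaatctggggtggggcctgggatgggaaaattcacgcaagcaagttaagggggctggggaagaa
On this stretch the TGACG is not followed by an ATTGG at the spacing of the chain genes. Both genes were lower by similar amounts, -0.53 ± 0.07 for Psmb9 and -0.47 ± 0.08 for Tap1.

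The RFX subunits gave no shared direction. Rfx5 was at -0.07 ± 0.09 (adjusted p = 0.609) and Rfxank at 0.11 ± 0.05 (adjusted p = 0.136). Rfxap was read at 8.44, 8.28 and 8.41, then 8.46, 8.42 and 8.51 in APC-WT tumours and at 8.93, 8.90 and 8.75, then 8.57, 8.55 and 8.44 in APC-KO tumours, so that only the APC-KO tumours without Dox stood clear. By this probe set Rfxap was higher, at 0.27 ± 0.05 (adjusted p = 0.00076), but its other probe set was lower, at -0.32 ± 0.06 (adjusted p = 0.00116), so no direction is given for the gene.

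Class II genes differed between tumours of a group more than between genotypes. H2-Aa, a chain of the I-A molecule, was at 12.39, 11.59 and 12.07 in APC-WT tumours without Dox and 11.62, 12.12 and 11.81 with Dox. The APC-KO tumours read 11.87, 12.27 and 12.16 without Dox and 12.13, 11.71 and 11.63 with Dox. The groups overlapped, and the difference was 0.03 ± 0.13 (adjusted p = 0.888, 95% interval -0.25 to 0.31). H2-Ab1, its partner chain, spanned 10.77 to 11.79 in APC-WT and 10.77 to 11.36 in APC-KO tumours (-0.08 ± 0.15), and H2-Eb1, the beta chain of I-E, spanned 11.17 to 12.08 and 11.22 to 11.85 (0.02 ± 0.14). Cd74, the invariant chain, spanned 11.83 to 12.62 and 11.73 to 12.36 (-0.03 ± 0.12, 95% interval -0.29 to 0.23). The 95% intervals of H2-Ab1 and H2-Eb1 were -0.39 to 0.23 and -0.27 to 0.32. All 4 intervals thus include a fall of the size seen in H2-K1 (-0.19), and none includes that of Tap1 (-0.47).

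Peptide editing and processing genes of the class II route did not pass either. H2-DMa, a chain of the peptide exchanger H2-DM, was at -0.04 ± 0.11 and H2-DMb2, which encodes a beta chain, at -0.12 ± 0.10. Ctss, the cathepsin that removes the invariant chain, was at 0.07 ± 0.04 (adjusted p = 0.155), and Ifi30, a thiol reductase of endosomes, at 0.06 ± 0.04 (adjusted p = 0.331). Those last 2 genes were read tightly, with 95% intervals of -0.01 to 0.16 and -0.04 to 0.16, so a fall of the size seen in Psmb9 lay outside them.

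The spread of the class II genes was shared. The median residual SD within groups was 0.258 over the 9 class II genes, against 0.109 over the 16 class I genes and 0.096 over all genes. APC-WT no Dox replicate 1 was the highest of its group for 9 of 9 class II genes and replicate 2 the lowest for 9 of 9. In the other groups 1 tumour was highest for 8 of 9 (APC-WT Dox replicate 2), 7 of 9 (APC-KO no Dox replicate 2) and 8 of 9 (APC-KO Dox replicate 1). The markers of dendritic cells averaged 6.87 in APC-WT no Dox replicate 1 and 6.60 and 6.62 in the other tumours of that group, and those of all leukocytes 10.80 against 10.58 and 10.60. With Dox, dendritic cell markers were also highest in the tumour with the highest class II values of each group. They averaged 6.70 against 6.63 and 6.61 in APC-WT Dox, and 6.72 against 6.67 and 6.69 in APC-KO Dox. The dendritic cell means are over 9 genes, of which 3 (Xcr1, Cd209a and Dpp4) were under the floor, and these gaps are small. In the APC-KO no Dox group, however, dendritic cell markers were lowest, at 6.51, in the tumour with the highest class II values. Macrophage markers spanned 10.96 to 11.17 over all 12 tumours. They were highest in the same tumour as class II in APC-WT no Dox (11.09), APC-WT Dox (11.12) and APC-KO no Dox (11.17). In APC-KO Dox they were lowest in that tumour, at 11.03. Markers of all leukocytes were highest in the same tumour as class II in both APC-WT groups and in neither APC-KO group. For B cells, 7 of 7 markers with a probe set were under the floor. The part of these cells in the class II values was not tested.

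A pair of class II promoters is shown for comparison with those of the class I chains: H2-Aa, with a TGACGTCA and an ATTGG in capitals, and H2-Eb1, with an ATTGG and a match to the X1 core (AG, AAC, G and TG, each set apart by any 1 base).
H2-Aa (chr17:34287867-34287972, minus strand): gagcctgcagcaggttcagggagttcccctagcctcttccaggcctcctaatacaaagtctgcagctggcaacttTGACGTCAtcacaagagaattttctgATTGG
H2-Eb1 (chr17:34305745-34305812, plus strand): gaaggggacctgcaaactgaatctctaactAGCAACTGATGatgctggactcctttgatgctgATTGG
The X1 letters were found on either strand in 2 of 26 promoters of these genes (H2-DMb1 and H2-Eb1) and in 1.26% of all promoters. TGACG with the spacing of the class I chains was found in 0 of 9 class II promoters, against 0.0962% of all promoters. That spacing was read from the class I chain promoters, so the 0 does not set the 2 classes apart. H2-Aa holds both a TGACG and an ATTGG at another spacing, close to that of the class I chains. They begin at -74 and -48 from the start, against -41 and -16 in H2-K1.

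Many of these genes lie side by side in the MHC of chromosome 17. The RefSeq order runs from Tapbp and H2-K1 through H2-Oa, H2-DMa, H2-DMb2, H2-DMb1, Psmb9, Tap1, Psmb8, Tap2, H2-Ob, H2-Ab1, H2-Aa and H2-Eb1 to H2-D1, H2-T23 and H2-M3. Psmb9, Tap1, Psmb8 and Tap2 form a block between class II genes, and all 4 were lower, while H2-DMa and H2-DMb2 on one side and H2-Ab1, H2-Aa and H2-Eb1 on the other did not pass. Of 8 class I genes of this chromosome that were tested, 7 were lower. Nlrc5, Psmb10, Psme1, Erap1 and Tapbpl, on other chromosomes, were lower too.

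**Figure D3:**
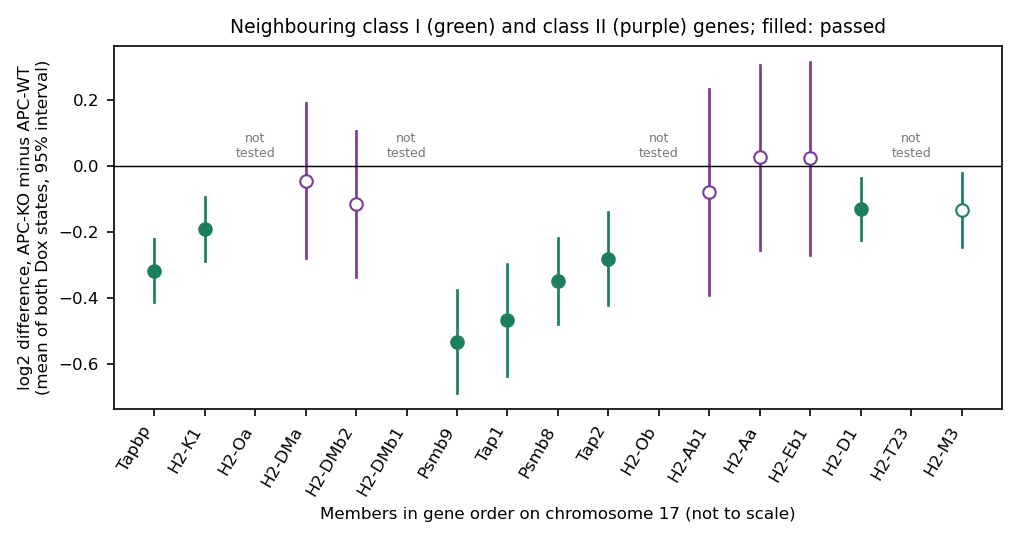
Log2 difference between APC-KO and APC-WT tumours, averaged over the Dox states with its 95% interval, for the presentation genes of chromosome 17 in gene order (spacing not to scale; filled points passed after adjustment, and intervals are not adjusted). The 4 genes Psmb9, Tap1, Psmb8 and Tap2 lie below 0 between class II genes whose intervals include 0.

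Taken in each Dox state apart, the genotype comparison gave a like picture for the class I genes. The differences came from different tumours, but both tests used a spread estimated over all 12 arrays and are not independent. Without Dox 10 of 16 class I genes were lower and 0 higher, against 11.1% lower and 13.8% higher over all genes. With Dox 10 of 16 were lower and 1 (Canx, 0.19 ± 0.05) higher, against 7.99% and 11.9%. The 9 class I genes that were lower in both were Tap1, Tapbp, Tapbpl, Psmb8, Psmb9, Psmb10, Psme1, Erap1 and Nlrc5. H2-K1 passed without Dox (-0.22 ± 0.06, adjusted p = 0.0231) and stood at -0.17 ± 0.06 with Dox (adjusted p = 0.0868). Tap2 stood at -0.22 ± 0.09 without Dox (adjusted p = 0.106) and passed with Dox (-0.35 ± 0.09, adjusted p = 0.018). No class II gene passed in either state, and 0 of 9 had an unadjusted p under 0.05 each time, against 37.2% of all genes without Dox and 32.8% with Dox.

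Single tumours carried some of those calls. Without Dox, the call of Erap1 was lost without any 1 of APC-WT replicates 1 and 3 and APC-KO replicates 1, 2 and 3, that of Psmb8 without APC-WT replicate 1 or 3 or APC-KO replicate 1 or 2, that of H2-K1 without APC-WT replicate 2 or 3 or APC-KO replicate 1, and that of Psmb10 without APC-WT replicate 1 or 3. Leaving out APC-WT no Dox replicate 3 thus left 6 lower class I genes. With Dox the calls of Tap1 and Tap2 were each lost without any 1 of APC-WT replicates 2 and 3 and APC-KO replicates 2 and 3, and that of Canx without APC-WT replicate 2 or APC-KO replicate 3. In the averaged comparison the other 11 lower calls held without any 1 of the 12 arrays.

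**Figure D4:**
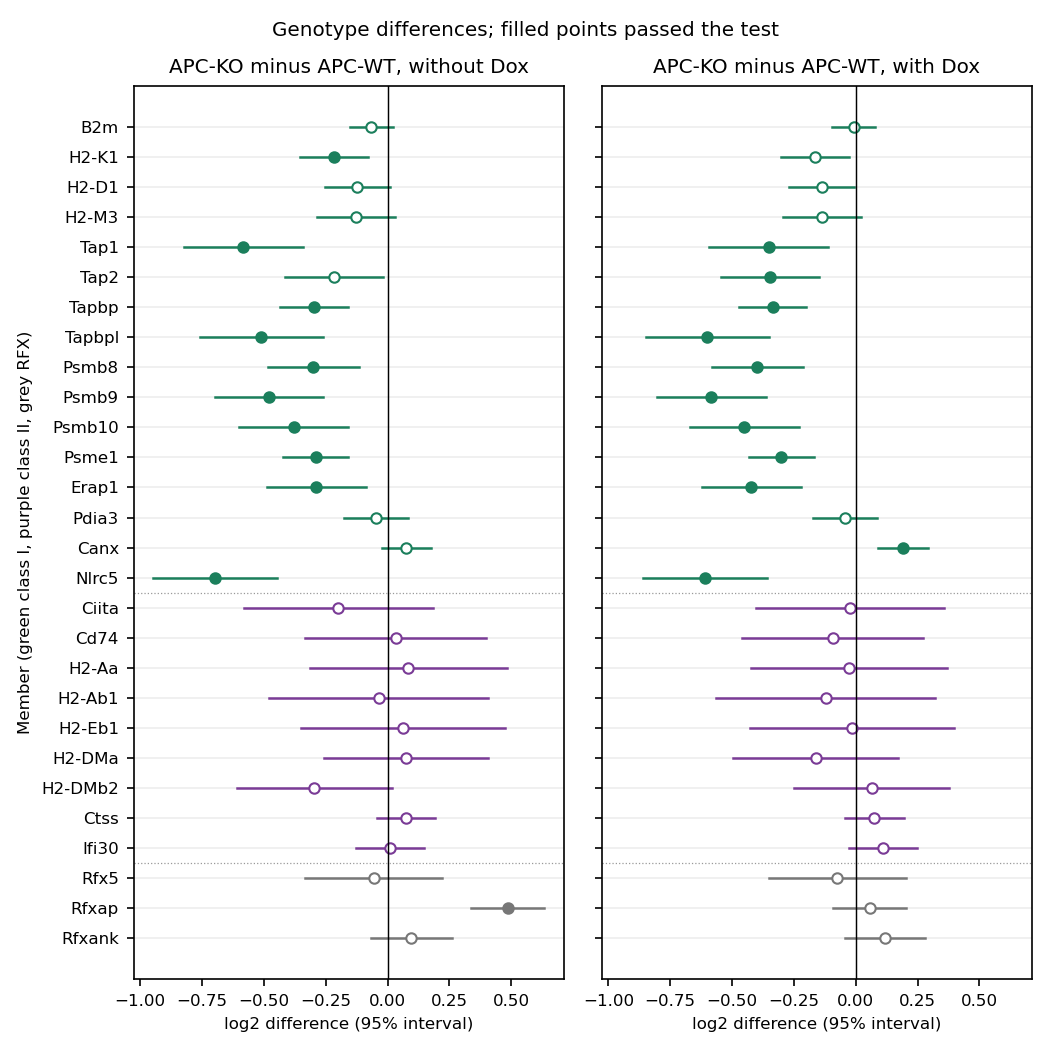
Log2 difference between APC-KO and APC-WT tumours without Dox (left) and with Dox (right) for the 28 tested genes, with unadjusted 95% intervals over 3 against 3 tumours; filled points passed after adjustment over all genes. Class I points lie mostly left of 0 in both panels, from -0.70 for Nlrc5 to 0.19 for Canx, and all 9 class II intervals include 0 in both panels.

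The second question was what Dox changed. In APC-WT tumours 0 of 28 genes passed (limma), where 0.0271% of all genes did, and 5 had an unadjusted p under 0.05, as did 15.5% of all genes. The smallest adjusted p was that of Tapbp (0.162), at -0.21 ± 0.06, and 27 of the 28 genes lay below 0, as did 53.0% of all genes. Tap1 was at -0.31 ± 0.11 (adjusted p = 0.212), Nlrc5 at -0.32 ± 0.12 (adjusted p = 0.214) and H2-DMb2 at -0.37 ± 0.15 (adjusted p = 0.246).

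In APC-KO tumours the brightest Rfxap probe set was lower with Dox, at -0.34 ± 0.07 (adjusted p = 0.0457), where 0.506% of all genes were called lower. That call was lost in 10 of the 12 fits that left out 1 array (all but APC-WT no Dox replicate 2 and APC-KO no Dox replicate 3) and under 6 other settings. No other gene passed. Of the 28 genes 26 lay below 0, as did 49.2% of all genes, and 9 had an unadjusted p under 0.05, against 13.1% of all genes. In 7 of 28 genes, Rfxap among them, all 3 tumours with Dox lay below all 3 without, against 9.67% of all genes. The other 6 were Tapbp (-0.24 ± 0.06, adjusted p = 0.12), Tap2 (-0.28 ± 0.09), Erap1 (-0.26 ± 0.09), Psmb10 (-0.26 ± 0.10), H2-DMa (-0.34 ± 0.16) and Ctss (-0.15 ± 0.06). Genes of 1 pathway in 3 tumours vary together, so the count below 0 is a description and not evidence of a shift.

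The interaction asked whether Dox acted differently in the 2 genotypes. It was called for 0 of 28 presentation genes and 0% of all 11070 genes (limma), with 1 of 28 (Rfxap, -0.43 ± 0.10, adjusted p = 0.191) and 11.9% of all genes at an unadjusted p under 0.05. The 95% interval of Nlrc5 ran from -0.27 to 0.44 and that of Psmb9 from -0.42 to 0.21, so differences up to these sizes could have been missed.

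Arm values, the mean over the genes of an arm of the distance from each gene mean, put those comparisons together for each tumour. For class I they averaged 0.21 ± 0.07 (SD, n = 3) in APC-WT tumours without Dox, 0.08 ± 0.11 with Dox, -0.08 ± 0.06 in APC-KO tumours without Dox and -0.21 ± 0.10 with Dox. For class II the same groups averaged 0.10 ± 0.35, -0.08 ± 0.15, 0.08 ± 0.10 and -0.10 ± 0.18. Class II minus class I ran from 0.03 to 0.27 in the APC-KO tumours and from -0.36 to 0.22 in the APC-WT tumours, where APC-WT no Dox replicate 1 gave the 0.22 and the other 5 were below 0. These values describe the tumours and were not tested.

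**Figure D5:**
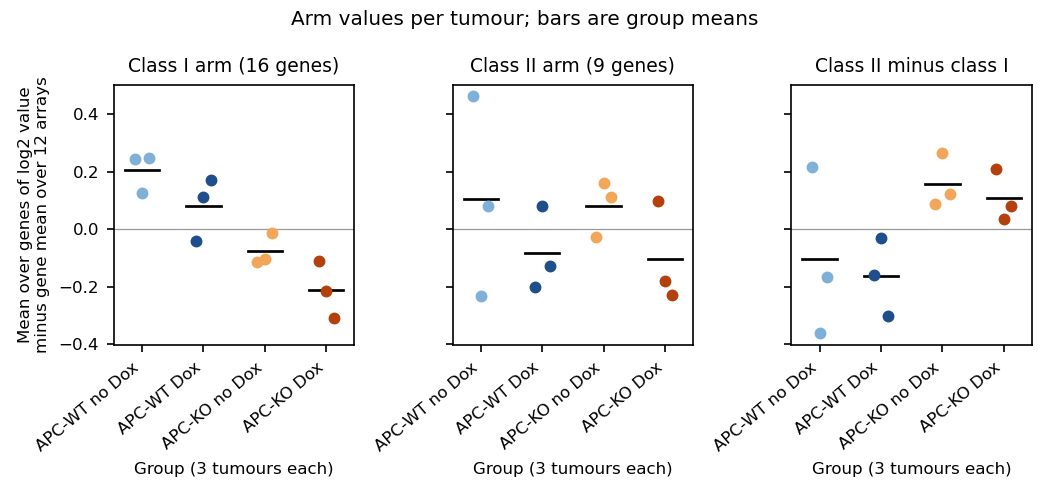
Mean distance from the gene mean (log2) over the 16 class I genes (left), over the 9 class II genes (middle) and their difference (right) in each of the 12 tumours; bars are means of 3 tumours. Class I group means step down from 0.21 in APC-WT without Dox to -0.21 in APC-KO with Dox, and APC-WT no Dox replicate 1 stands alone at 0.46 in class II.

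Regulators around the pathway were read from lists of other genes. The counts that follow stand against 15.6% lower and 20.9% higher over all genes, and several are near those shares. Of 10 tested genes of interferon gamma signalling, 3 were lower and 2 higher, with a median of -0.05. Irf1, the factor that carries interferon signals to class I genes, was at 10.92 to 11.13 in APC-WT and 10.40 to 10.77 in APC-KO tumours with no overlap, lower by a difference of -0.42 ± 0.06 (adjusted p = 0.000118). Jak2 (-0.19 ± 0.06) and Ptpn2 (-0.14 ± 0.05) were lower, and Ifngr2, a receptor chain, and Socs3, an inhibitor, were higher (0.33 ± 0.04 and 0.27 ± 0.09). Of 11 tested partners of RFX, CIITA and NLRC5, 5 were higher and 1 lower. Hdac2, a histone deacetylase, was higher by 0.49 ± 0.04 (adjusted p = 3.69e-07) and Ezh2, the methyltransferase of the Polycomb complex, by 0.42 ± 0.04 (adjusted p = 5.54e-06). Nfya, Crebbp and Eed were higher at 0.25 ± 0.05, 0.17 ± 0.05 and 0.15 ± 0.04, and Nfyc was lower at -0.14 ± 0.04.

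Other tested genes of the 2 routes did not copy the members. Of 17 standard proteasome, peptidase and loading genes 9 were higher and 0 lower, led by Psme3 (0.31 ± 0.06), which caps the proteasome in the nucleus, with Psmb7 (0.18), Psma1 (0.17) and Tpp2 (0.17) after it. Of 15 further class I and class I-like chains, 8 had a probe set of their own and only 5 were tested, so most were not followed. Of these 5, 2 were higher: Cd1d1, which presents lipids, at 0.41 ± 0.08 and Hfe, a regulator of iron uptake, at 0.18 ± 0.05. Of 12 endolysosomal and further class II genes 3 were higher and 2 lower, with Sppl2a, the protease that clears the CD74 stump, at -0.39 ± 0.05 (adjusted p = 2.72e-05), Marchf1, a ubiquitin ligase of class II, at 0.22 ± 0.07, and the cathepsins Ctsd, Ctsh and Ctsl at -0.16 ± 0.03, 0.13 ± 0.05 and 0.11 ± 0.03. Of 7 costimulatory and coinhibitory ligands 1 was lower: Cd274, which encodes PD-L1, at -0.48 ± 0.12 (adjusted p = 0.00616).

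Markers of some cells that could add presentation genes differed between the genotypes, T cell markers most often, while the counts for macrophages, dendritic cells and all leukocytes were near the 15.6% lower and 20.9% higher over all genes. T cell markers were lower in 6 of 8 tested genes, led by Cd3g (6.99 to 8.14 in APC-WT and 5.86 to 7.03 in APC-KO tumours, adjusted p = 0.000383), with Cd8b1 at -0.97 ± 0.14, Cd3d at -0.79 ± 0.16 and Cd8a at -0.74 ± 0.11, and the mean of the 8 ran from 6.45 to 7.17 in APC-WT and 5.91 to 6.53 in APC-KO tumours. NK cell markers were lower in 2 of 4 (Klrd1 -0.54 ± 0.11, Klrk1 -0.45 ± 0.14). Macrophage markers were higher in 2 of 10 (Mertk 0.33 ± 0.06, Csf1r 0.17 ± 0.04) and lower in 1 (Lyz2 -0.18 ± 0.04), and dendritic cell markers were higher in 1 of 6 (Batf3 0.40 ± 0.06) and lower in 1 (Zbtb46 -0.38 ± 0.09). Of 3 tested neutrophil markers Csf3r was higher (0.30 ± 0.07), and all 3 were higher without Dox, where Csf3r stood at 0.41 ± 0.09. S100a9 was at 3.13 ± 0.70 without Dox and was lower with Dox (-2.35 ± 0.70), with the interaction at -5.47 ± 0.99 (adjusted p = 0.129). S100a8 was at 2.94 ± 0.64 and -2.13 ± 0.64, with the interaction at -5.07 ± 0.90 (adjusted p = 0.129). Of 5 leukocyte markers Itgb2 was lower (-0.15 ± 0.05). Fibroblast markers were higher in 3 of 8 (Pdgfra 0.48 ± 0.05, Col1a1 0.26 ± 0.07, Col3a1 0.16 ± 0.04) and endothelial markers in 3 of 5 (Cdh5 0.39 ± 0.08, Emcn 0.36 ± 0.08, Kdr 0.20 ± 0.07), while 0 of 2 tested epithelial markers passed, with 0 at an unadjusted p under 0.05. The part of these cells in the lower class I genes was not tested.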

How the data were processed

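RNA of 12 tumours had been read on Affymetrix mouse arrays. The authors deposited normalized expression values, taken as log2 from their range of 1.86 to 14.16. The submitters' processing notes name MAS5; version, scaling and log transform: not given in the sources used here.

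Of 45101 probe sets, 64 were controls, 34945 had 1 gene symbol, 932 several and 9160 none; 34741 of those with 1 gene were matched to RefSeq by Entrez identifier. A gene was read through its brightest probe set, and 11070 of 18193 genes with a mean at or above 5.55, the median over non-control probe sets, were tested. This floor is a filter and not a measured background. A group-means model was fitted with limma 3.58.1 in R 4.3.3 (lmFit, eBayes with a trend, statmod 1.5.0), and 6 contrasts were tested, 2-sided, with Benjamini-Hochberg adjustment over all tested genes and a threshold of 0.05. A fold is 2 to the power of the size of the log2 difference, and intervals are 95% without adjustment. An exact test of 3 against 3 was not used for single genes. The precision is limited by the number of arrays.

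The genes and the lists were chosen with earlier results of these data known. Every presentation gene is accounted for; of each other list, up to 4 genes that passed are named by size in a comparison, and Psmb5, Psmb6, Ptpn2, Eed, Nfyc and Ctsl were added after their values were seen. Alternatives were the filter, the floor, the mean of probe sets, no trend, 2 scalings, the groups compared alone, array weights, the replicate block and each array left out; fits of every probe set on its own were added after seeing the data. Promoters came from RefSeq (GRCm38.p6), and figures and motif searches from Python 3.11.15 with pandas 2.3.3 and matplotlib 3.10.9.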

Additional observations from a re-analysis of the deposited data

How the results depend on the processing

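The count of presentation genes called in the genotype comparison without Dox was 11 and ranged from 7 to 11 with single arrays left out, with 7 when APC-WT no Dox replicate 3 was removed. With Dox it was 11 (8 to 12), and averaged over Dox 14 (13 to 15). The 1 call for Dox in APC-KO tumours (Rfxap) became 0 with no filter, the mean of probe sets, no trend, the compared groups alone, array weights or the replicate block, and 0 to 1 with single arrays left out. Rfxap averaged over Dox turned from 0.27 to -0.024 (adjusted p = 0.712) with the mean of probe sets. Class I genes called lower numbered 11 to 12 in the averaged comparison under the 8 settings other than leaving out arrays, 7 to 10 without Dox and 9 to 12 with Dox. In the averaged comparison H2-D1 was lost under quantile scaling and without the trend. With the mean of probe sets Tap1 and Ciita fell under the floor and were not tested in any comparison. Under that setting Pdia3 was called lower in the averaged comparison, and Tapbp (adjusted p = 0.119), Erap1 (0.0589) and Rfxap (0.204) were lost without Dox. With Dox Tap1 was lost with no filter (adjusted p = 0.0506) and without the trend (0.0552). Without Dox H2-K1 was lost without the trend (0.0537), and Erap1 (0.0886), Psmb8 (0.062) and Psmb10 (0.0568) with array weights. A class II gene was called once: H2-DMb2 in the comparison without Dox when APC-WT no Dox replicate 2 was left out. Of 760 refits of 37 calls, 701 still passed with the same sign, 58 kept the sign but did not pass, and 1 changed sign.

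Over all genes, the 2205 calls with Dox became 3510 with array weights and 1291 to 2354 with single arrays left out; the 3 for Dox in APC-WT tumours became 0 to 653, the 60 in APC-KO tumours 1 to 92, and the 0 of the interaction up to 119. The replicate numbers showed no pairing of the tumours, although such correlations over few arrays cannot exclude one. Same-numbered arrays correlated at -0.22 to 0.17 after removal of group means, 4 of 18 pairs over 0.1. Arrays of different numbers and groups correlated at -0.25 to 0.25, 7 of 36 pairs over 0.1. With the replicate block, 9 class I genes were lower without Dox, and Erap1 was lost. Arm differences moved by less than the SD pooled over the 4 groups, but those of class II between genotypes changed sign with the setting, running from -0.19 to 0.16 without Dox and from -0.11 to 0.07 in the averaged comparison. For arrays, depth is signal over background: Ciita near the floor and the bright class I chains can hide a change.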
